A study of Homo sapiens with 18 samples.

Results

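The genes described here are NKX2-1 and 6 further genes of the early lung progenitor: SFTA3, CPM, FOXP1, FOXP2, FOXP4 and SOX9. They were chosen by symbol, all 7 were found among the 35025 genes of the deposited count table, and all 7 passed the filter on low counts that left 15531 genes for testing. CPM in capitals is always the carboxypeptidase M gene. Levels are counts per 1000000 counts after scaling, written cpm in lower case. The cells were foregut endoderm differentiated from wild-type H1, an established human embryonic stem cell line, and bulk RNA-seq was made from 18 libraries in 6 groups of 3. Cultures were taken at day 6 or day 9 without further factors (untreated day 6, untreated day 9). Others had all-trans retinoic acid (RA, 2 µM, 24 h, from day 5 to day 6) and were taken at day 6 (day 6 RA) or day 9 (day 9 RA). Further day 9 cultures had 2 µM CHIR99021, an inhibitor of GSK3 that turns on canonical Wnt signalling, with 50 ng/mL of the ligand BMP4 for 72 h from day 6, either without RA (CHIR99021/BMP4) or after it (RA then CHIR99021/BMP4, also called the full sequence). The submitters describe CHIR99021 with BMP4 as a stand-in for the signals that induce respiratory fate. All groups are derivatives of a single cell line, and nothing in the labels says that the 3 libraries of a group came from separate cultures, and a p value here therefore speaks only of how these libraries vary.

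NKX2-1 is a homeodomain transcription factor and the earliest widely used marker of respiratory endoderm, where Wnt and BMP signals from the ventral mesoderm switch it on in a foregut that RA has made competent. It also marks the thyroid and parts of the ventral forebrain. SFTA3 lies next to NKX2-1 and is transcribed in lung and thyroid epithelium. CPM encodes a membrane carboxypeptidase whose protein is used to sort NKX2-1-positive progenitors from stem cell cultures. FOXP1, FOXP2 and FOXP4 are forkhead repressors of the developing airway and lung epithelium. SOX9 is an HMG-box factor of the distal lung tips and is also well known from cartilage, neural crest, and pancreatic and bile ducts.

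Totals ran from 5.79 to 25.4 M counts per library (M, 1000000 counts). The 12 endoderm and epithelium markers checked were detected in all 6 groups, with summed levels of 3244 to 11123 cpm per library. The libraries fell into kinds that follow the treatment. In 63 genes, of which RefSeq lists 60 as pseudogenes, the libraries with any treatment stood at least 10-fold apart from the 3 untreated day 9 libraries and untreated day 6 replicate 2. The genes of this set that were higher in treated libraries held 93.9% to 95.5% of the set's reads in all 12 treated libraries, 0.306% to 0.549% in those 4 untreated libraries, and 8.52% and 16.8% in untreated day 6 replicates 1 and 3. The set was picked by this gap, so these shares follow from the choice, except in untreated day 6 replicates 1 and 3, which took no part in it. None of the 7 genes belongs to the set, and its origin is not given in the sources used here. Comparisons among treated groups lie within a single kind and are given first. For a treated group against an untreated one, treatment and library kind cannot be told apart, and values from a fit with the set's log2 ratio as a covariate are given with them. Since the set was picked to separate treated from untreated libraries, a call lost with this covariate does not tell treatment from library kind.

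NKX2-1 was highest after RA then CHIR99021/BMP4, with 81.3, 86.7 and 69.7 cpm in the 3 libraries. CHIR99021/BMP4 without RA gave 8.97, 13.6 and 9.38 cpm. RA alone gave almost none: 1, 1 and 1 counts in the day 6 RA libraries and 2, 2 and 0 counts in the day 9 RA libraries. Untreated cultures held 5, 3 and 5 counts at day 6 and 26, 9 and 5 counts at day 9. The libraries of both CHIR99021/BMP4 groups lay above all others, and those 2 groups did not overlap.

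RA before CHIR99021/BMP4 raised NKX2-1 from 10.7 ± 2.58 to 79.3 ± 8.66 cpm (mean ± SD, n = 3). The log2 fold change was 2.93 (SE 0.14, adjusted p = 8.33e-14 by edgeR's quasi-likelihood test over 15531 genes). CHIR99021/BMP4 after RA raised it from 4 counts in the 3 day 9 RA libraries together to 3070, a ratio of 499 after scaling (95% interval 195 to 1834, adjusted p = 1.66e-17). Such intervals cover counting error only. Against day 6 RA, with 3 counts in all, the ratio was 761 (interval 260 to 3693, adjusted p = 2.11e-17). The endoderm marker sum was 4090 to 4612 cpm after CHIR99021/BMP4, 4676 to 5021 after the full sequence and 9787 to 11123 in the RA-only groups, and its part in these differences was not tested. By log2 fold change NKX2-1 ranked 1 of the 15531 tested genes in CHIR99021/BMP4 after RA and in the full sequence against day 6 RA. Both ranks rest on the 4 and 3 counts of the RA-only groups, and NKX2-1 passed the low-count filter only through the CHIR99021/BMP4 groups. In RA before CHIR99021/BMP4 it ranked 131. The order of the 6 groups from the highest was RA then CHIR99021/BMP4, CHIR99021/BMP4, untreated day 9, untreated day 6, day 9 RA and day 6 RA. The adjusted p for untreated day 9 against day 6 was 0.0823, and that for day 9 RA against day 6 RA was 0.652.

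**Figure D1:**
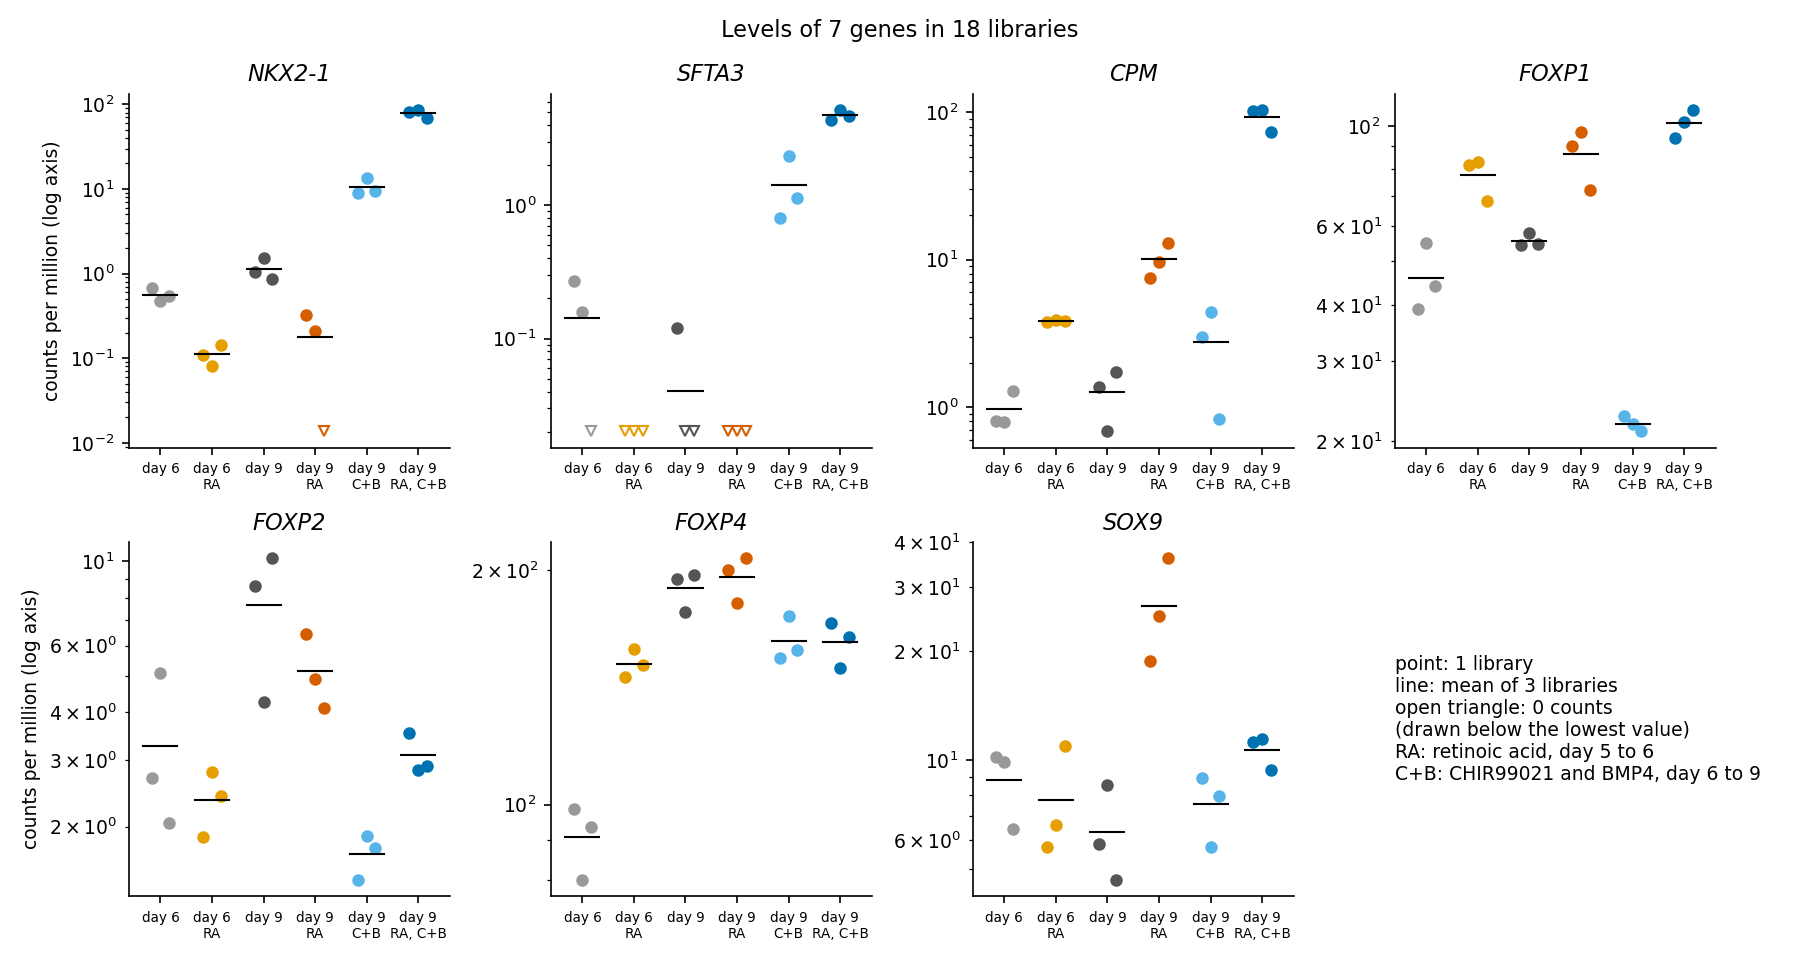
Counts per 1000000 of the 7 genes in each of the 18 libraries on a log axis, by group, with the group mean as a line and libraries at 0 counts as open triangles. NKX2-1, SFTA3 and CPM are highest in the 3 libraries given RA then CHIR99021 and BMP4, FOXP1 is lowest with CHIR99021 and BMP4 alone, and SOX9 is highest at day 9 after RA.

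SFTA3 followed NKX2-1 at a lower level. It had 91, 52 and 34 counts after RA then CHIR99021/BMP4, which is 4.35, 5.22 and 4.69 cpm, and 11, 21 and 22 counts (0.796, 2.33 and 1.14 cpm) after CHIR99021/BMP4. None of the 6 libraries with RA alone had a read, and the untreated libraries held 0 to 3. The 3 libraries of the full sequence lay above all others. RA before CHIR99021/BMP4 raised SFTA3 by a log2 fold change of 1.83 (SE 0.33, adjusted p = 0.000182). CHIR99021/BMP4 after RA raised it at least 38.4-fold, taking a floor of 3 counts over the 3 day 9 RA libraries (adjusted p = 4.92e-08). Per 100 NKX2-1 counts there were 12.7 ± 4.13 SFTA3 counts after CHIR99021/BMP4 and 6.03 ± 0.685 after the full sequence. In the individual libraries the CHIR99021/BMP4 values were 8.87, 17.1 and 12.2, and those of the full sequence 5.35, 6.03 and 6.72, so the groups did not overlap. The CHIR99021/BMP4 values rest on only 11, 21 and 22 SFTA3 counts, and the difference in this ratio was not tested. Over the 18 libraries the Pearson correlation of the log2 levels of NKX2-1 and SFTA3 was 0.96, a description of points that share their libraries.

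In RefSeq (GRCh38.p14) NKX2-1 lies on chromosome 14 from 36516397 to 36520232 on the minus strand, and SFTA3 from 36473288 to 36519556 on the same strand. SFTA3 is listed there as a long non-coding RNA. The second listed start of NKX2-1 and the first listed start of SFTA3 are the same base, 36519556. The deposited count table gives SFTA3 from 36473288 to 36513785 and NKX2-1 from 36516398 to 36519556, which do not overlap. The 250 bases before this shared start are shown because RefSeq lists it for both genes. The SFTA3 interval of the count table does not reach it, so the SFTA3 counts do not show which start was used. The 250 bases before the upstream NKX2-1 start are shown for contrast. Both are RefSeq sequence written 5′ to 3′ along the transcribed strand, with capitals marking motif matches.

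Shared NKX2-1 and SFTA3 start, chr14:36519557-36519806, minus strand: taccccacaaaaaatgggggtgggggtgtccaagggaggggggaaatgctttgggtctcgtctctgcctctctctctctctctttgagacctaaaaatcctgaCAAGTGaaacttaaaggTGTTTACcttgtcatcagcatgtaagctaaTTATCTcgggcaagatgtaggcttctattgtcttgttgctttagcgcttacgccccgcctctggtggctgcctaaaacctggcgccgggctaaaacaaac
Upstream NKX2-1 start, chr14:36520233-36520482, minus strand: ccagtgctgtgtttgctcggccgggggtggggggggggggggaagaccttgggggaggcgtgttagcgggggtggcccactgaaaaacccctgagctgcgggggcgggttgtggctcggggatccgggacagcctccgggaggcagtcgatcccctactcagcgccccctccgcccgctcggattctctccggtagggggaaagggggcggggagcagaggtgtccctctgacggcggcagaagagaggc

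5 motifs were searched on both strands. They were the forkhead motif TGTTTAC, the GATA motif AGATAA, the NKX2 motif CAAGTG, the TCF/LEF motif ATCAAAG and the nuclear receptor motif AGGTCA. The window of the shared start held CAAGTG from -147 to -142, TGTTTAC from -130 to -124 and AGATAA on the reverse strand (written TTATCT) from -100 to -95, counted back from the first transcribed base, and no 2 of the matches overlap. The upstream window held none of the 5, and its GC content was 70.8% against 49.6% at the shared start. SFTA3 has a second listed start at 36513535, whose window is not shown. It also held none of the 5, with a GC content of 68.4%. Of 34788 windows of the same length in the promoter table, 9.52% held CAAGTG, 2.98% TGTTTAC, 9.21% AGATAA, 2.27% ATCAAAG and 12.02% AGGTCA. A match is only a description of letters. 6 of the 7 genes had an entry in that table.

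NKX2-1-AS1, a non-coding RNA of the opposite strand that overlaps NKX2-1 by 1872 bases in GENCODE v29, appeared in the same groups. It had 49, 27 and 5 counts after the full sequence, 3, 5 and 3 after CHIR99021/BMP4 and 0 in the other 12 libraries, and it fell below the filter for testing. In the deposited count table NKX2-1-AS1 begins at 36519277 and NKX2-1 ends at 36519556, so they share fewer bases there than in GENCODE v29. Whether the authors' counting used strand is not stated in these sources, so reads of overlapping genes may be mixed. The genes around NKX2-1 did not follow one pattern. Of the 9 tested genes of the neighbourhood list, which includes SFTA3 but not NKX2-1, 7 rose and 1 fell in RA before CHIR99021/BMP4, beside 21.2% and 22.1% of all tested genes. Distances here run from the NKX2-1 start to the nearer edge of each gene. FOXA1, a pioneer forkhead factor of endoderm 1069.3 kb away, rose from 29.5 ± 2.73 to 224 ± 5.5 cpm (log2 fold change 2.92, SE 0.08). TTC6 beside it rose by 2.10 (SE 0.13), MIPOL1 by 0.69 (SE 0.11) and SLC25A21 by 0.61 (SE 0.20). MBIP, on the other side beyond SFTA3 at 199.6 kb, rose by 0.50 (SE 0.11). PAX9, a pharyngeal pouch factor 137.3 kb from NKX2-1, went the other way and fell by 2.40 on the log2 scale (SE 0.52, adjusted p = 0.000622). PAX9 stood at 2.10, 1.55 and 1.14 cpm after CHIR99021/BMP4 and at 0.287, 0.502 and 0 after the full sequence. Around the other members, 16 neighbouring genes were tested, of which 8 rose and 0 fell in that comparison. In CHIR99021/BMP4 after RA, MBIP rose by 1.27 (SE 0.12) while PAX9 fell by 4.14 (SE 0.45) and FOXA1 fell by 0.22 (SE 0.07).

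**Figure D2:**
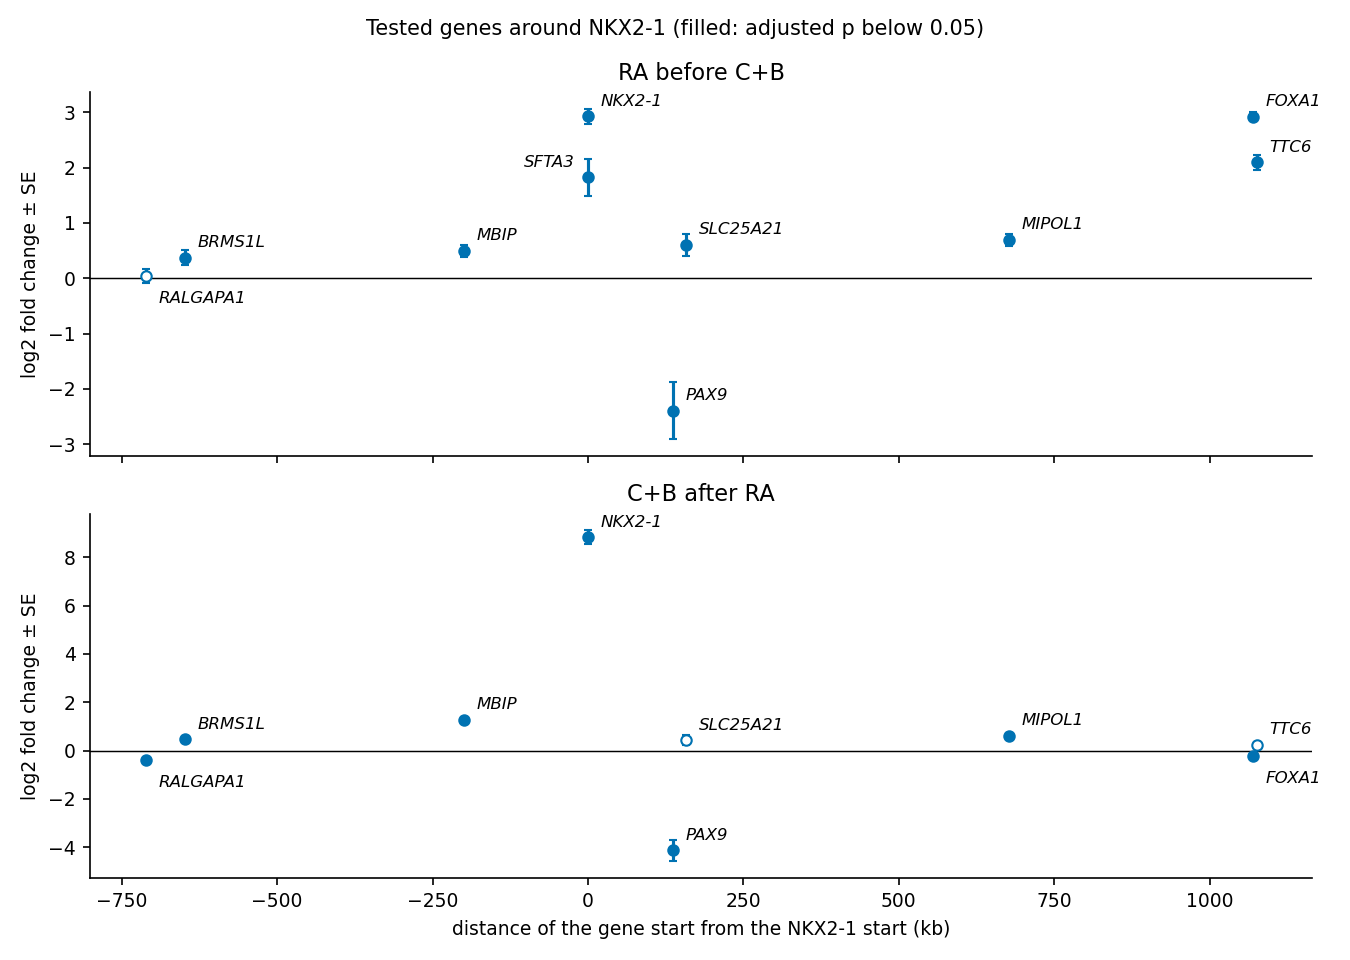
Log2 fold change with its SE of the tested genes around NKX2-1 against their distance from the NKX2-1 start in kb. Panels show RA before CHIR99021 and BMP4 (upper) and CHIR99021 and BMP4 after RA (lower), with filled points below an adjusted p of 0.05. The distance is to the nearer edge of each gene, although the axis label names the gene start. PAX9 lies below 0 in both panels beside NKX2-1 far above it, and SFTA3 is left out of the lower panel because day 9 RA had 0 counts.

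CPM was the member with the largest difference made by RA before CHIR99021/BMP4. Its levels were 102, 105 and 73.6 cpm after the full sequence against 2.97, 4.43 and 0.829 after CHIR99021/BMP4 alone. RA alone gave 3.75, 3.92 and 3.82 cpm at day 6 and 7.54, 9.61 and 13.0 at day 9, while the 6 untreated libraries lay between 0.681 and 1.73. So every library that had seen RA lay above every untreated one, and the 3 with the full sequence lay above all others. The log2 fold change was 5.29 (SE 0.31, adjusted p = 2.97e-09) for RA before CHIR99021/BMP4 and 3.20 (SE 0.27, adjusted p = 5.34e-08) for CHIR99021/BMP4 after RA. From day 6 to day 9 after RA it rose by 1.41 (SE 0.37, adjusted p = 0.00394). CPM lies on chromosome 12 from 68842197 to 68963469 in RefSeq (minus strand, GRCh38.p14). In GENCODE v29 it overlaps MDM2, the ubiquitin ligase of p53 on the opposite strand, by 8490 bases. The deposited count table gives CPM a shorter interval, from 68851175 to 68963240, and whether that interval reaches MDM2 was not checked. MDM2 rose in RA before CHIR99021/BMP4 by 1.34 (SE 0.15), from 68.9 ± 7.74 to 173 ± 20.3 cpm. In CHIR99021/BMP4 after RA, MDM2 had a log2 fold change of 0.20 (SE 0.15, adjusted p = 0.24) beside the 3.20 of CPM.

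FOXP1 was lowest after CHIR99021/BMP4 without RA, at 22.7, 21.8 and 21.0 cpm. It was highest after the full sequence, at 94.1, 102 and 109. With RA alone it lay between 68.0 and 96.8 and without any treatment between 39.1 and 57.9, so the CHIR99021/BMP4 libraries lay below all others. RA before CHIR99021/BMP4 raised it by a log2 fold change of 2.21 (SE 0.12, adjusted p = 9.94e-13). CHIR99021/BMP4 after RA gave 0.23 (SE 0.11, adjusted p = 0.0637), with overlapping libraries. That value passed the threshold without day 9 RA replicate 2 (0.32, adjusted p = 0.0209), without replicate 1 of the full sequence (0.28, adjusted p = 0.0477), with upper quartile factors (0.32, adjusted p = 0.0131), without the low-count filter (0.25, adjusted p = 0.0345) and with a replicate block (0.24, adjusted p = 0.0333).

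FOXP2 was the lowest of the 3 FOXP genes, at 1.45 to 10.2 cpm. Its levels were 3.54, 2.81 and 2.89 after the full sequence, 1.45, 1.88 and 1.76 after CHIR99021/BMP4 and 6.42, 4.91 and 4.11 in day 9 RA, and these 3 groups did not overlap. RA before CHIR99021/BMP4 raised it by 0.90 (SE 0.32, adjusted p = 0.0254), and CHIR99021/BMP4 after RA lowered it to a log2 fold change of -0.68 (SE 0.29, adjusted p = 0.0470). Neither call held under every alternative. The first was lost with limma on log2(TPM + 1) (0.22, adjusted p = 0.180) and without CHIR99021/BMP4 replicate 1 (0.80, adjusted p = 0.0900), without its replicate 3 (0.94, adjusted p = 0.0613) and without replicate 1 of the full sequence (0.75, adjusted p = 0.141). The second was lost with a replicate block (-0.69, adjusted p = 0.0557), with upper quartile factors (-0.59, adjusted p = 0.0798) and with limma on log2(TPM + 1) (-0.26, adjusted p = 0.0907). It was also lost without day 9 RA replicate 1 (-0.52, adjusted p = 0.168) or 2 (-0.71, adjusted p = 0.0809) and without each replicate of the full sequence (-0.83, -0.61 and -0.64, with adjusted p of 0.0534, 0.115 and 0.0961).

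FOXP4 was the most highly expressed of the family in every group when compared per length in TPM. It stood at 98.7, 80.1 and 93.7 cpm in untreated day 6 and between 146 and 207 in the other 15 libraries. Day 6 was therefore below all other groups. RA before CHIR99021/BMP4 gave a log2 fold change of -0.00 (SE 0.08, adjusted p = 0.984), with 162 ± 11.02 cpm after CHIR99021/BMP4 and 162 ± 10.9 after the full sequence. CHIR99021/BMP4 after RA gave -0.28 (SE 0.08, adjusted p = 0.00404), from 196 ± 13.3 cpm in day 9 RA. The related FOXP3, a regulator of T cells, was below the filter with means of at most 0.449 cpm.

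SOX9 had a pattern of its own among the 7. It was highest in day 9 RA, at 18.8, 25.1 and 36.1 cpm, and lay between 4.67 and 11.4 in the other 15 libraries. The full sequence gave 11.2, 11.4 and 9.37, and CHIR99021/BMP4 gave 8.90, 5.76 and 7.98. These last 2 groups did not overlap, but the log2 fold change of 0.49 (SE 0.26) had an adjusted p of 0.140. A fit with only the compared groups gave 0.49 with an adjusted p of 0.0104. CHIR99021/BMP4 after RA lowered SOX9 to a log2 fold change of -1.32 (SE 0.24, adjusted p = 0.000120). Day 9 RA exceeded day 6 RA by 1.83 (SE 0.26, adjusted p = 8.34e-06). The full sequence against day 6 RA gave 0.51 (SE 0.27, adjusted p = 0.127), which passed the threshold without day 6 RA replicate 3 (0.79, adjusted p = 0.0256) and with only the compared groups (0.54, adjusted p = 0.0124). Markers of other cell types moved with this peak. All 8 cardiac markers were detected in day 9 RA, with sums of 1202 to 1732 cpm against 9.14 to 10.6 after the full sequence and 44.7 to 58.5 after CHIR99021/BMP4. The 12 splanchnic and mesenchyme markers summed to 1795 to 2755 in day 9 RA and 255 to 274 after the full sequence. Most of the day 9 RA sum came from COL1A1, the main chain of fibrillar collagen, at 1606 ± 289.6 cpm there and 100 ± 8.48 after the full sequence. FOXF1, a defining factor of splanchnic mesoderm, was at only 0.144 ± 0.125 cpm in day 9 RA. Their part in the SOX9 level was not tested. In bulk samples fewer cells of a type and less RNA per cell cannot be told apart.

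**Figure D3:**
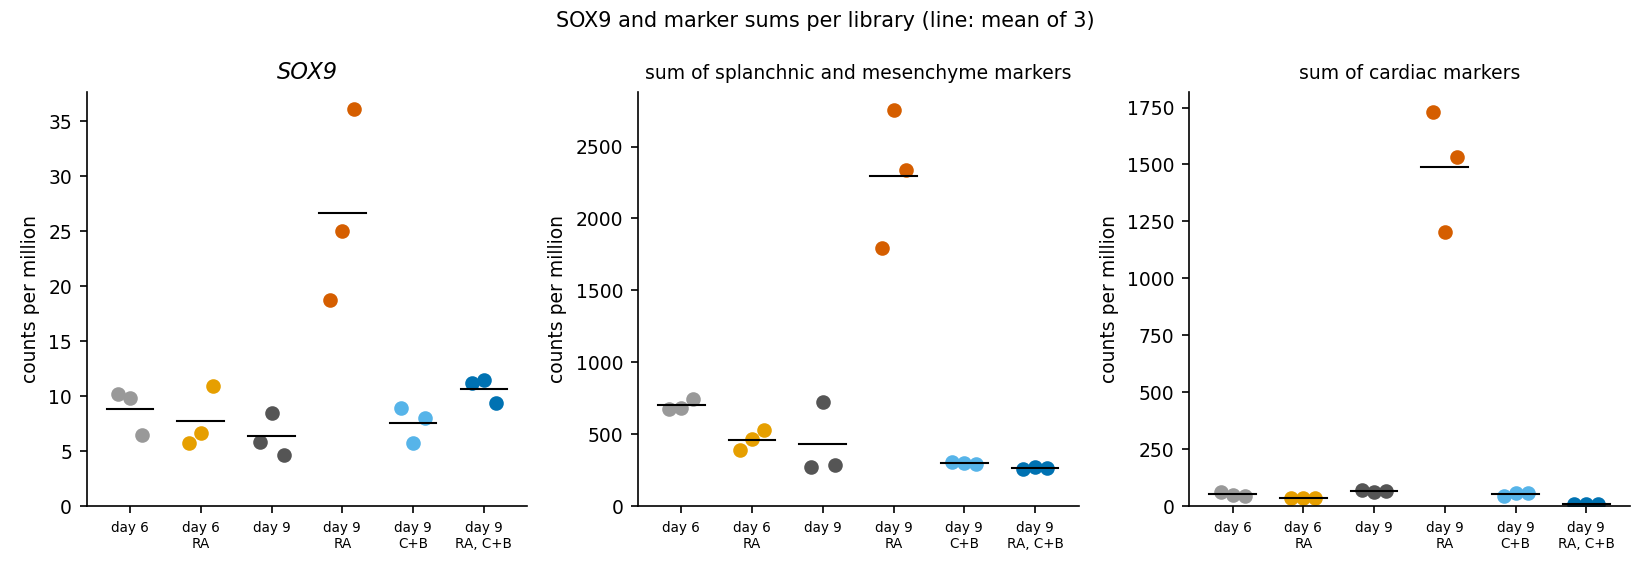
SOX9 (left), the sum of 12 splanchnic and mesenchyme markers (centre) and the sum of 8 cardiac markers (right) in counts per 1000000 per library, by group, with the mean of 3 libraries as a line. All 3 are highest in day 9 RA, where SOX9 is 18.8 to 36.1 and the cardiac sum 1202 to 1732, but the library with the highest SOX9 is not the one with the highest sum in either list.

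Compared per length, in TPM (transcripts per 1000000), FOXP4 and NKX2-1 were the highest of the 7 after the full sequence, at 57.6 ± 4.89 and 52.9 ± 4.47 TPM, and their libraries overlapped. CPM followed with 31.8 ± 5.23 TPM, SOX9 with 15.7 ± 1.32, FOXP1 with 10.01 ± 0.888, SFTA3 with 4.24 ± 0.336 and FOXP2 with 0.421 ± 0.0557. After CHIR99021/BMP4 without RA the order began with FOXP4 (54.4 ± 5.85 TPM) and SOX9 (10.4 ± 1.88 TPM), and NKX2-1 stood at 6.74 ± 1.87 TPM. In day 9 RA, SOX9 was at 39.4 ± 13.7 TPM and NKX2-1 at 0.117 ± 0.108 TPM. Each gene's divisor can be read from counts and TPM: relative to that of NKX2-1 it was 6.79 for FOXP1, 4.89 for FOXP2 and 0.453 for SOX9. The order between genes therefore depends on the lengths that the authors used. In GENCODE v29 the joined exons of SOX9 cover 3935 bases and those of NKX2-1 3165. The divisor of SOX9 was thus the smaller although its exons are the longer, which places SOX9 higher in this order than exon length would.

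Counted over the 7 genes, 5 rose and none fell in RA before CHIR99021/BMP4, where 43.3% of all tested genes were called, 21.2% higher and 22.1% lower. At an unadjusted p below 0.05 also 0 of the 7 were lower, and DESeq2 had 0 lower. In CHIR99021/BMP4 after RA 3 rose (NKX2-1, SFTA3 and CPM) and 3 fell (FOXP2, FOXP4 and SOX9), where 64.4% of all genes were called, 32.1% higher and 32.3% lower. From day 6 to day 9 after RA 4 rose (CPM, FOXP2, FOXP4 and SOX9), where 58.8% of all genes were called, 28.5% higher and 30.3% lower. FOXP1, at 0.15 (adjusted p = 0.251), was called without day 9 RA replicate 3 (0.27, adjusted p = 0.0368). FOXP2 rose by 1.08 (SE 0.32) and FOXP4 by 0.37 (SE 0.08), while NKX2-1 had 3 and 4 counts and SFTA3 none. From day 6 RA to the full sequence at day 9, NKX2-1, SFTA3 (at least 43.9-fold), CPM (4.61, SE 0.31) and FOXP1 (0.38, SE 0.11) rose, where 51.8% of all genes were called, 25.1% higher and 26.7% lower. These comparisons share groups and are not independent of each other. With this many genes called, the share among the 7 shows nothing particular to them.

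**Figure D4:**
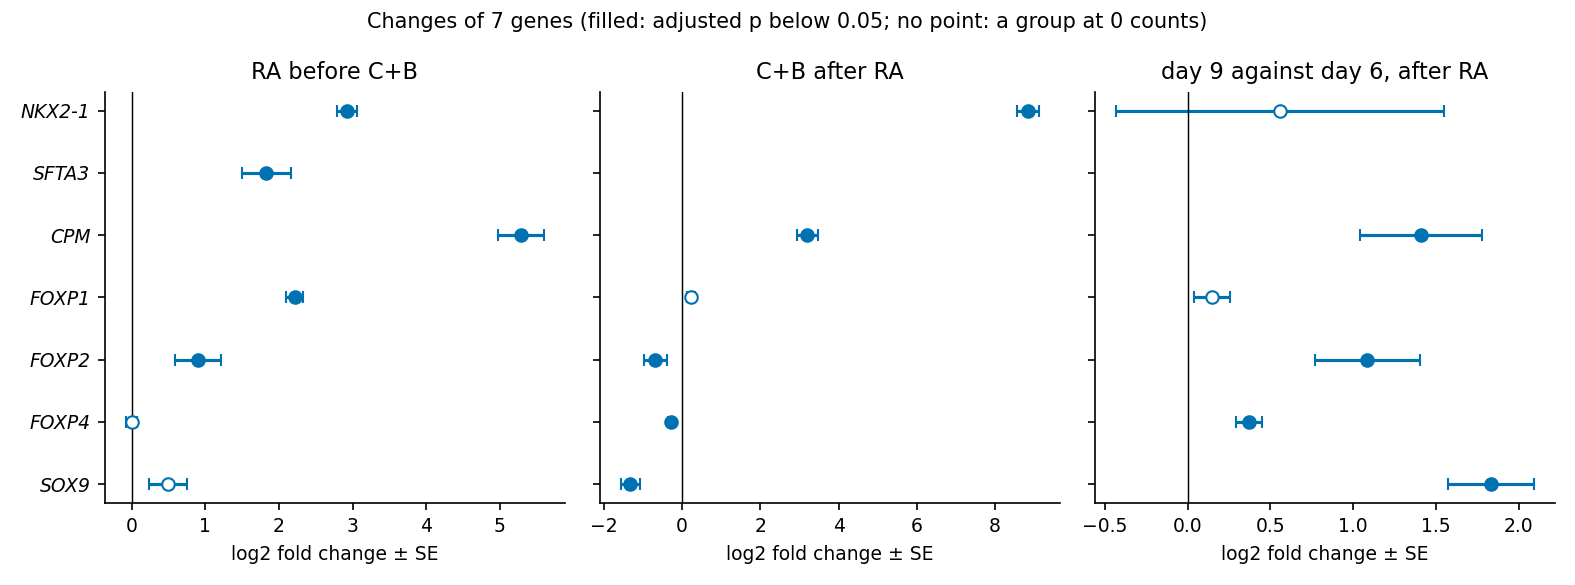
Log2 fold change with its SE of the 7 genes in RA before CHIR99021 and BMP4, in CHIR99021 and BMP4 after RA, and in day 9 against day 6 after RA, with filled points below an adjusted p of 0.05 and no point where a group had 0 counts. NKX2-1 reaches 8.84 in the middle panel, CPM is the highest in the left panel at 5.29, and SOX9 is above 0 in the right panel and below 0 in the middle one.

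The comparisons with untreated libraries cross the library kinds. NKX2-1 and SFTA3 passed the low-count filter only through the CHIR99021/BMP4 groups. Their tests between groups without CHIR99021/BMP4 therefore rest on few counts. At day 6, NKX2-1 had 13 counts over the untreated group and 3 with RA (ratio 0.188, interval 0.0343 to 0.683, adjusted p = 0.0157), while CPM (log2 fold change 1.94, SE 0.59), FOXP1 (0.76, SE 0.11) and FOXP4 (0.74, SE 0.08) were higher. These 4 calls stood beside 48.7% of all genes, 25.3% higher and 23.4% lower. With the covariate only FOXP1 remained called, at 1.36 (adjusted p = 0.00274), and NKX2-1 was at -3.23 (adjusted p = 0.217), CPM at 0.77 (adjusted p = 0.891) and FOXP4 at 0.33 (adjusted p = 0.346). The NKX2-1 call was also lost without day 6 RA replicate 2 (-2.08, adjusted p = 0.0651) and with limma on log2(TPM + 1) (-0.31, adjusted p = 0.0787), and that of CPM without untreated day 6 replicate 1 (1.81, adjusted p = 0.0514). Without both mixed untreated day 6 libraries, an alternative chosen after seeing the data, NKX2-1 was at -2.07 (adjusted p = 0.205) and CPM at 2.24 (adjusted p = 0.157), while FOXP2 was called lower (-1.11, adjusted p = 0.0448).

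At day 9, RA without CHIR99021/BMP4 gave a lower NKX2-1 (-2.68, SE 0.58, adjusted p = 0.000315) and a higher CPM (2.96, SE 0.44), FOXP1 (0.64, SE 0.11) and SOX9 (2.11, SE 0.27). The NKX2-1 value sets 26, 9 and 5 counts in untreated day 9 against 2, 2 and 0 in day 9 RA. FOXP2 was lower (-0.63, SE 0.27, adjusted p = 0.0461). These 5 calls stood beside 65.1% of all genes, 32.5% higher and 32.5% lower. FOXP1 alone was called with the covariate (1.46, adjusted p = 0.0150). With it NKX2-1 was at -4.05 (adjusted p = 0.227) and CPM at 1.25 (adjusted p = 0.870). The SOX9 value with the covariate was 3.05 (adjusted p = 0.0779), and that of FOXP2 turned to 1.83 (adjusted p = 0.281). FOXP4 was at 0.05 (adjusted p = 0.624). The FOXP2 call was further lost without untreated day 9 replicates 1 (-0.51, adjusted p = 0.176) or 3 (-0.47, adjusted p = 0.164), without day 9 RA replicates 2 (-0.60, adjusted p = 0.111) or 3 (-0.49, adjusted p = 0.167), and with DESeq2 (-0.58, adjusted p = 0.105). It was lost as well with a replicate block (-0.62, adjusted p = 0.0616), with RLE factors (-0.60, adjusted p = 0.0564), with only the compared groups (-0.63, adjusted p = 0.0880) and with limma on log2(TPM + 1) (-0.10, adjusted p = 0.525). FOXP4 gained a call with limma on log2(TPM + 1) (0.37, adjusted p = 0.00382).

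NKX2-1 was at 1.15 ± 0.345 cpm in untreated day 9 and 10.7 ± 2.58 after CHIR99021/BMP4 without RA, a log2 fold change of 3.23 (SE 0.23, adjusted p = 8.70e-11). SFTA3 went from 3 counts to 54 (ratio 15.6, interval 5.07 to 78.1). FOXP1 (-1.35, SE 0.12), FOXP2 (-2.21, SE 0.29) and FOXP4 (-0.23, SE 0.08) were lower. These 5 calls stood beside 42.8% of all genes, 21.0% higher and 21.8% lower. CPM was at 0.87 (SE 0.52, adjusted p = 0.199), and it was called without CHIR99021/BMP4 replicate 3 (1.45, adjusted p = 0.00188). With the covariate none was called, NKX2-1 was at 1.88 (adjusted p = 0.761), SFTA3 at 4.28 (adjusted p = 0.750), FOXP1 at -0.54 (adjusted p = 0.547), FOXP2 at 0.22 (adjusted p = 0.955) and FOXP4 at -0.80 (adjusted p = 0.168), and 1 of the 7 was lower at an unadjusted p below 0.05. DESeq2 without that covariate called 5. The FOXP4 call was lost without untreated day 9 replicate 1 (-0.21, adjusted p = 0.0775) or 3 (-0.20, adjusted p = 0.0812) and without CHIR99021/BMP4 replicate 1 (-0.19, adjusted p = 0.0978) or 3 (-0.21, adjusted p = 0.0796).

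Against untreated day 9 the full sequence called all 7, with 5 higher and 2 lower, where 56.6% of all genes were called, 28.0% higher and 28.6% lower. NKX2-1 was 73.6-fold higher by counts (interval 53.9 to 103) and CPM 74.3-fold (interval 55.9 to 101). SFTA3 was 56.6-fold higher over 3 counts (interval 19.0 to 277). With the covariate FOXP1 alone was called (1.67, adjusted p = 0.00712), and NKX2-1 was at 4.82 (adjusted p = 0.260), SFTA3 at 6.11 (adjusted p = 0.547), CPM at 4.48 (adjusted p = 0.550), FOXP2 at 1.10 (adjusted p = 0.588), FOXP4 at -0.79 (adjusted p = 0.0943) and SOX9 at 1.71 (adjusted p = 0.379). The SOX9 call (0.79, adjusted p = 0.0223) was lost without untreated day 9 replicate 1 (0.71, adjusted p = 0.120) or 3 (0.68, adjusted p = 0.0713) and without replicate 1 (0.75, adjusted p = 0.0704) or 2 (0.75, adjusted p = 0.0593) of the full sequence. That of FOXP4 (-0.23, adjusted p = 0.0170) was lost without untreated day 9 replicate 1 (-0.21, adjusted p = 0.0560) or 3 (-0.21, adjusted p = 0.0607) and without replicate 2 of the full sequence (-0.18, adjusted p = 0.0986). From untreated day 6 to untreated day 9 only FOXP2 (1.32, SE 0.29) and FOXP4 (1.06, SE 0.08) rose, where 46.9% of all genes were called, 24.0% higher and 22.9% lower. FOXP4 kept its call with the covariate (1.22, adjusted p = 2.86e-08), and FOXP2 did not (0.71, adjusted p = 0.142). FOXP1, at 0.27 (adjusted p = 0.0567), was called without untreated day 6 replicate 2 (0.41, adjusted p = 0.00646), with a replicate block (0.28, adjusted p = 0.0333) and without the low-count filter (0.27, adjusted p = 0.0442). Without both mixed untreated day 6 libraries FOXP2 was at 0.61 (adjusted p = 0.254).

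The difference between RA and no RA was not the same with CHIR99021/BMP4 as without for 5 of the 7, where 53.4% of all genes were called in this interaction, 25.5% higher and 27.9% lower. For NKX2-1 the response was 2.93 with CHIR99021/BMP4 and -2.68 without, a difference of 5.61 (SE 0.54, adjusted p = 1.06e-08). The -2.68 rests on 26, 9 and 5 counts in untreated day 9 and 2, 2 and 0 in day 9 RA. The differences were 2.33 (SE 0.63) for CPM, 1.58 (SE 0.16) for FOXP1, 1.53 (SE 0.42) for FOXP2 and -1.62 (SE 0.37) for SOX9. SFTA3 had an adjusted p of 0.0533, resting on 0 and 3 counts in the groups without CHIR99021/BMP4. FOXP4 was at -0.05 (SE 0.11, adjusted p = 0.732). With the covariate, NKX2-1 alone kept its call (6.99, adjusted p = 0.0310), and CPM was at 4.06, FOXP1 at 0.75, FOXP2 at -0.95 and SOX9 at -2.57, with adjusted p of 0.475, 0.253, 0.644 and 0.156. CPM lost its call without untreated day 9 replicate 1 (2.22, adjusted p = 0.0995). SFTA3 passed the threshold without untreated day 9 replicate 2 (5.08, adjusted p = 0.0467) or 3 (5.08, adjusted p = 0.0471) and without CHIR99021/BMP4 replicate 2 (5.24, adjusted p = 0.0229). It also passed with a replicate block (4.95, adjusted p = 0.0479), with upper quartile factors (4.81, adjusted p = 0.0489), without the low-count filter (4.82, adjusted p = 0.0388) and with limma on log2(TPM + 1) (1.33, adjusted p = 7.78e-05). The FOXP2 call was lost with limma on log2(TPM + 1) (0.32, adjusted p = 0.148).

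Other genes of lung progenitors and tips moved in both directions. The list holds 24 genes, of which 23 were tested. In RA before CHIR99021/BMP4 14 rose and 8 fell, beside 21.2% and 22.1% of all genes. The median log2 fold change of the list was 0.61, beside -0.01 over all tested genes. The largest changes were those of SHH, the hedgehog ligand of foregut epithelium, from 25.4 ± 19.6 to 516 ± 37.0 cpm, and FOXA2, a pioneer factor of endoderm, from 18.9 ± 7.99 to 171 ± 3.13. GATA6, a zinc finger factor of foregut and early lung, went from 8.39 ± 1.59 to 71.6 ± 3.94 cpm, and FOXA1 changed as given above. In CHIR99021/BMP4 after RA 10 rose and 11 fell, beside 32.1% and 32.3% of all genes. The median was -0.20, beside 0.02. IRX2, IRX3 and IRX1, Iroquois homeobox factors of the early lung epithelium, rose by 4.19 (SE 0.24), 4.19 (SE 0.21) and 4.05 (SE 0.40), and SHH by 3.97 (SE 0.51). The genes named by largest change all rose in their comparison, although 8 and 11 genes of the list fell. FOXA1 and GATA6 were already at 260 ± 15.5 and 205 ± 9.73 cpm in day 9 RA, where NKX2-1 had 4 counts in all. Both were lower after the full sequence, FOXA1 by 0.22 on the log2 scale (SE 0.07) and GATA6 at 71.6 ± 3.94 cpm.

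**Figure D5:**
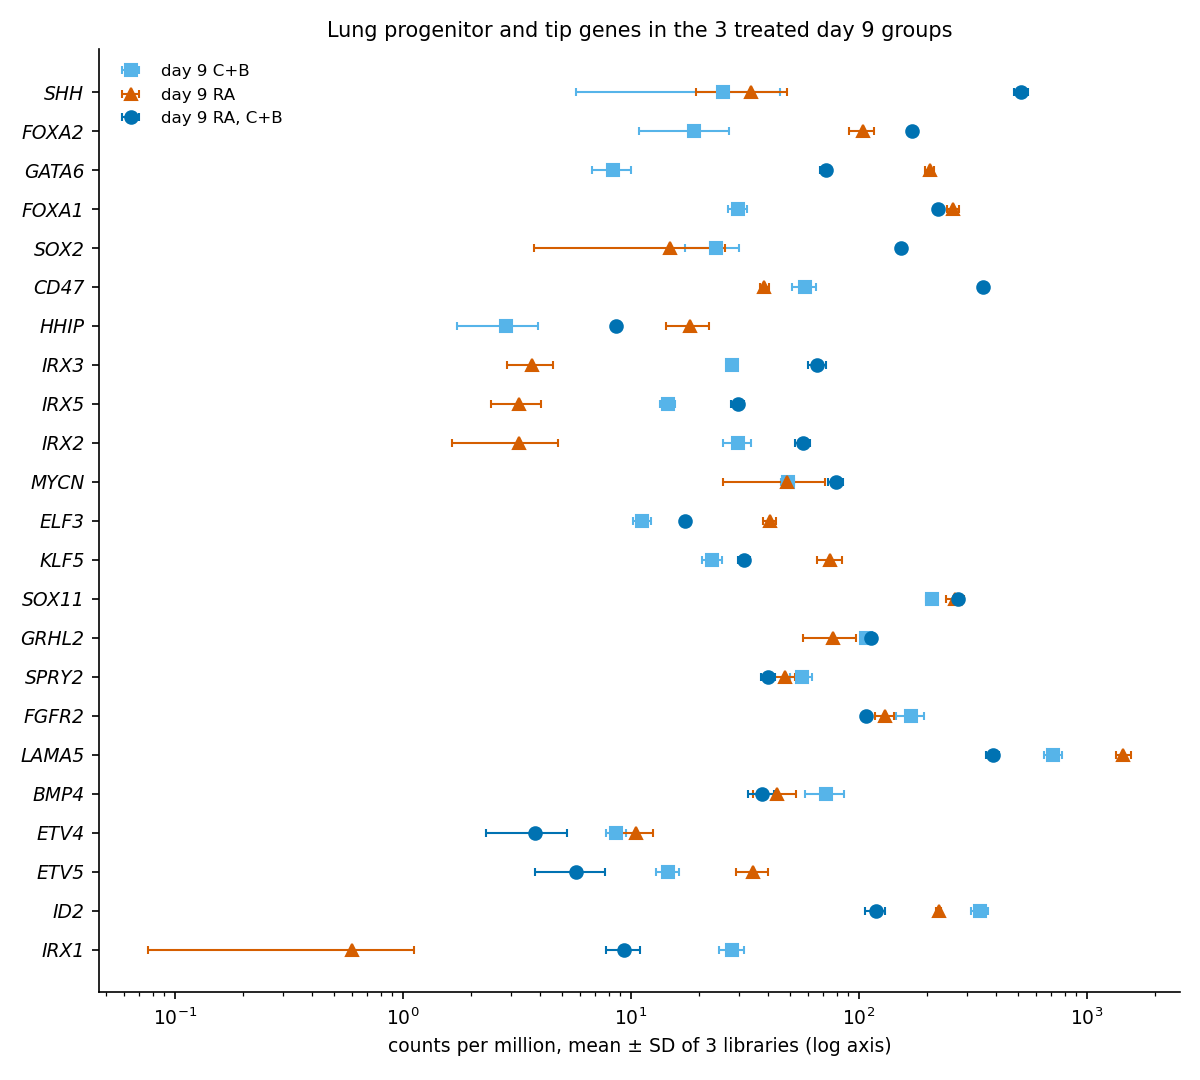
Mean ± SD of 3 libraries in counts per 1000000 (log axis) for 23 lung progenitor and tip genes after CHIR99021 and BMP4 (squares), RA alone at day 9 (triangles) and RA then CHIR99021 and BMP4 (circles), ordered by the log2 fold change of RA before CHIR99021 and BMP4. SHH and SOX2 are high only in the full sequence among these 3 groups, while FOXA1 and FOXA2 are low in CHIR99021 and BMP4 alone and IRX1, IRX2 and IRX3 are low in RA alone.

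Of 17 listed markers of mature lung epithelium 7 were tested, with 2 rising and 1 falling in RA before CHIR99021/BMP4, and this count and those of the lists below stand beside the same shares of all genes, and 8 had 0 counts in all 3 libraries of the full sequence, among them the surfactant genes SFTPA1, SFTPB and SFTPC and the club cell gene SCGB1A1. FOXJ1, the master factor of motile cilia, rose from 5.80 ± 0.819 to 24.7 ± 2.57 cpm in RA before CHIR99021/BMP4, but day 6 RA had 279 ± 34.6. ABCA3, a lipid transporter of lamellar bodies, fell from 16.3 ± 1.63 to 7.40 ± 0.684.

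NKX2-1 also marks thyroid and ventral forebrain, so genes of both were counted. Of 10 thyroid genes 5 were tested, 2 rising and 1 falling in RA before CHIR99021/BMP4 and 0 rising and 3 falling in CHIR99021/BMP4 after RA. Their median log2 fold change was 0.79 in the first comparison, beside -0.01 over all tested genes, and -2.15 in the second, beside 0.02. The 2 genes that rose in the first are not among those named here. PAX8, the partner of NKX2-1 in thyroid, was at 0.0159 ± 0.0276 cpm after the full sequence, and HHEX, a factor of thyroid and liver buds, fell from 43.5 ± 18.6 and from 245 ± 42.4 to 16.4 ± 2.02. Of 12 ventral forebrain genes 5 were tested. In CHIR99021/BMP4 after RA 2 of them rose and 1 fell, beside 32.1% and 32.3% of all genes. In RA before CHIR99021/BMP4 3 of them fell and 0 rose. SIX3, an eye field and forebrain factor, stood at 8.43 ± 1.18 and 0.239 ± 0.0374 cpm, OTX2, a head organiser gene, at 324 ± 30.4 and 29.5 ± 5.54, and the ligand gene FGF8 at 23.9 ± 3.92 and 5.19 ± 1.31.

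For the other known settings of SOX9, 9 of 13 cartilage and neural crest genes were tested. 2 rose and 4 fell in RA before CHIR99021/BMP4, and 5 rose and 3 fell in CHIR99021/BMP4 after RA. SOX5, which works with SOX9 in cartilage, rose from 9.40 ± 1.17 to 56.7 ± 1.21 cpm in the first comparison and from 8.59 ± 0.585 in the second, while SOX6 fell in both. All 9 tested duct and pancreas progenitor genes fell in CHIR99021/BMP4 after RA, as SOX9 did, beside 32.3% of all genes. ONECUT2 went from 499 ± 333 to 6.93 ± 2.91 cpm, PDX1, the pancreas and duodenum factor, from 36.2 ± 19.96 to 1.25 ± 0.703, and CFTR, the chloride channel of ducts, from 77.5 ± 25.3 to 8.73 ± 1.18.

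The respiratory inducing signals were read through 18 genes, of which 14 were tested. In CHIR99021/BMP4 after RA 6 rose and 4 fell. The Wnt targets LGR5 and NKD1 rose from 1.90 ± 0.933 to 34.6 ± 2.03 and from 12.2 ± 2.13 to 75.3 ± 5.99 cpm. SMAD6, a BMP feedback inhibitor, fell from 226 ± 29.5 to 27.4 ± 1.57, and FGF10, a mesenchymal ligand of lung budding, fell from 11.8 ± 1.61 to 1.51 ± 0.767. These counts stand beside 32.1% higher and 32.3% lower over all genes. In RA before CHIR99021/BMP4 2 rose and 8 fell, beside 21.2% and 22.1%. The hedgehog targets GLI1 and PTCH1 were the 2 that rose, by 0.79 (SE 0.26) and 0.77 (SE 0.25). MSX2, a BMP target, went from 65.05 ± 16.02 to 9.66 ± 1.72 cpm, and the Wnt targets NOTUM and LEF1 went from 12.03 ± 2.03 to 1.97 ± 0.0398 and from 37.7 ± 2.73 to 13.1 ± 1.36.

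The genes whose log2 levels ran most like those of each member were found by Pearson correlation over the 18 libraries among 12382 candidates, and points of a group share their treatment. For NKX2-1 they were COL27A1 (0.98), FRRS1L (0.95), SPAG5 (0.94), ZFTA (0.94) and TTC21B (0.94). COL27A1, a fibrillar collagen gene, stood at 211 cpm on average after the full sequence, 141 after CHIR99021/BMP4 and 56.5 to 79.4 in the other groups, so its range was far narrower than that of NKX2-1. For SFTA3 they were FRRS1L (0.94), DCBLD2 (0.94) and COL27A1 (0.93). For CPM they were C2orf72 (0.95), PHF10 (0.94) and VIT (0.93). For FOXP1 they were TOP2B, TNS3 and PLEKHA1 (0.91 to 0.92), for FOXP2 EGFR, SLC30A1 and MAGEL2 (0.85 to 0.86), for FOXP4 ARFGEF3, RHOBTB1 and ACADS (0.94 to 0.95) and for SOX9 FAM181B, TNS1 and COL12A1 (0.90 to 0.92). COL12A1, a collagen gene of connective tissue, averaged 184 cpm in day 9 RA and 7.49 to 21.7 in the other groups. Between the members themselves, CPM and NKX2-1 had a correlation of 0.57 and CPM and FOXP1 of 0.61, while NKX2-1 had -0.09 with FOXP1 and -0.18 with SOX9.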

How the data were processed

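Bulk RNA-seq was measured in 18 libraries, grouped and numbered by the sample labels. The authors deposited raw counts per gene and TPM per gene. The aligner was STAR 2.7.9 and the genome GRCh38, per the submitters' processing notes. How reads were assigned to genes, with which annotation and strand option, is not stated in these sources. The 36 genes without a symbol held 0.001% of counts and were left out.

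Counts were analysed with edgeR 4.0.16 (R 4.3.3): filterByExpr with a minimum count of 10, trimmed mean of M-values scaling, and 1 robust quasi-likelihood fit over all groups. Benjamini-Hochberg adjustment ran over 15531 genes, and adjusted p below 0.05 made a call. Levels are counts per 1000000 (cpm) after scaling, and the SE of a log2 fold change is its size over the root of F. A group at 0 was set to 3 counts for a fold bound. Replicate numbers did not pair the libraries. The fit was tested on simulated data. Promoter windows came from RefSeq (GRCh38.p14).

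Genes named beyond the members were the 5 most alike for NKX2-1 and 3 for each other member (log2 cpm with a prior count of 2, at least 5 cpm in the highest group, no clone, antisense or pseudogene names). Per list and comparison, up to 4 called genes with the largest change and at least 5 cpm in the higher group were named, together with neighbours and markers of other cell types. FOXA1 and GATA6 in day 9 RA, PAX8, GLI1, PTCH1, FOXP3 and the surfactant genes were named outside that rule, after their values were seen. The members and lists were chosen with earlier results of these data known. Alternatives were RLE and upper quartile factors, no filter, a replicate block, the covariate of library kind, only the compared groups, DESeq2 1.42.0, limma 3.58.1 on log2(TPM + 1), and each library left out.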

Additional observations from a re-analysis of the deposited data

Results flagged for a closer look

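The change with RA differed between cultures with and without CHIR99021 and BMP4, by the interaction test in edgeR, for 5 of the 7 genes. The difference was 5.61 on the log2 scale for NKX2-1, 2.33 for CPM, 1.58 for FOXP1, 1.53 for FOXP2 and -1.62 for SOX9. Each of these sets treated libraries against untreated day 9 libraries on 1 side, so the response without CHIR99021 and BMP4 and the library kind cannot be told apart. For NKX2-1 the response without CHIR99021 and BMP4 also rests on only 0 to 26 counts per library. With the covariate of library kind the values were 6.99 (adjusted p = 0.0310), 4.06 (0.475), 0.75 (0.253), -0.95 (0.644) and -2.57 (0.156) in the same order of genes.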

How the results depend on the processing

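Within treated libraries, 369 of 390 values of single genes under the alternatives kept their direction and their side of the threshold, 12 lost the call (all FOXP2), 9 gained it (FOXP1 6, SOX9 3) and none reversed. NKX2-1, SFTA3, CPM and FOXP4 changed in none of them there. These values include day 9 against day 6 after RA, where SFTA3 had 0 counts in both groups and so could not change. NKX2-1 had at most 2 counts per library in that comparison, so its unchanged values there say little about stability. With the covariate of library kind, the number of the 7 genes called was 1 for RA at day 6, RA at day 9, the full sequence against untreated day 9, untreated day 9 against day 6 and the interaction, and 0 for CHIR99021 and BMP4 without RA. NKX2-1 with it was at -3.23, -4.05, 1.88 and 4.82 for RA at day 6, RA at day 9, CHIR99021 and BMP4 without RA and the full sequence against untreated day 9, all with the call lost. FOXP2 reversed with it, to 1.83 for RA at day 9, 0.22 for CHIR99021 and BMP4 without RA, 1.10 for the full sequence against untreated day 9 and -0.95 in the interaction. On log2(TPM + 1) with limma FOXP4 reversed to 0.019 and 0.10 for CHIR99021 and BMP4 without RA and for the full sequence, both against untreated day 9, and NKX2-1 for RA at day 6 was at -0.31. With only the compared groups, 3 genes were called for RA at day 9, where 5 of the 7 passed the filter. NKX2-1 and SFTA3 did not pass it there. Without both mixed untreated day 6 libraries 1 gene was called for untreated day 9 against day 6, and NKX2-1 for RA at day 6 was at -2.07; fewer samples remained. With each library left out in turn, NKX2-1 for RA at day 6 lay between -2.45 and -2.08, and the call was lost without day 6 RA replicate 2. The cause of the other changes was not tested. With a replicate block no pairing was taken as given: same-numbered libraries had correlations of -0.11 to 0.23, 6 of 18 correlated best with their own number, and the block left 5 members called in RA before CHIR99021 and BMP4 and 6 in CHIR99021 and BMP4 after RA, where FOXP1 gained its call and FOXP2 lost it. The block also gave FOXP1 a call in untreated day 9 against day 6 and SFTA3 one in the interaction, and took that of FOXP2 in RA at day 9. Over all genes the covariate left 300 called for CHIR99021 and BMP4 without RA, in place of 6654. NKX2-1 and SFTA3 had 0 to 26 counts in libraries without CHIR99021 and BMP4, so a fall there rests on few reads.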
